A study of Mus musculus with 6 samples.

Results

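The complement components and regulators described here were a list of 9 mouse genes: C1ra, C1s1, Serping1, C2, C4b, C3, Cfb, Cfi and C7. A gene was measured where the platform annotation gave at least 1 probe set that gene symbol and no other, and where a gene had several, the one brightest on average over all 6 arrays stood for it. By this rule 6 of the 9 genes were measured, by 8 of the 45101 probe sets, among 18194 genes measured in all. C4b was not used because its listed probe set also carries the symbol C4a, and C3 and C7 have no probe set listed in the annotation, so none of the 3 is reported.

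Whole ovaries of 8-month-old female mice were compared between FORKO mice, which lack the receptor for follicle-stimulating hormone (Fshr) through deletion of all its variants, and wild-type (WT) mice, bred from heterozygous parents of the 129T2 svEmsJ strain. RNA came from the left and right ovary together, and 3 WT and 3 FORKO samples, labelled as biological replicates, were each hybridised to 1 Affymetrix Mouse Genome 430 2.0 array. The FORKO samples are named so in title and genotype, whereas their free-text description mentions wild-type animals, and this conflict remains. The number of mice behind each sample is not in the labels, and the p-values cover the spread among these arrays, which may be technical in part. The deletion is a lifelong one carried by the whole animal, so an acute loss of the hormone signal and lifelong changes in the ovary cannot be told apart.

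Complement is a cascade of serum and tissue proteins. In its classical route the C1 complex binds a surface and its protease C1r activates C1s, which cuts C4 and C2. The fragments form an enzyme that cuts C3. In the alternative route factor B takes the place of C2. C1 inhibitor and factor I hold the cascade back. The liver makes most of the circulating proteins, and stromal, epithelial and immune cells make some of them locally; in the ovary, complement proteins are also present in follicular fluid.

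The deposited signals had a median of 17.7 to 23.5 per array and were scaled to 1 trimmed mean. Fshr read 99.6, 59.4 and 118.8 in WT and 1.20, 11.2 and 11.7 in FORKO ovaries, as the labels state, although where its probe set lies relative to the deletion is not given in the sources used here (limma adjusted p = 0.0102; 0.0526 and 0.0598 without WT replicates 1 and 3). FORKO replicate 1 stood apart, with a correlation of log2 signals of 0.934 and 0.936 with the other FORKO arrays, which correlated at 0.976 with each other; values within WT were 0.966 to 0.969. Calls that change without that array are given below with their values. Ratios of 3' to 5' signal of the Gapdh control probe sets were 5.34 to 9.62 in WT and 5.24 to 8.93 in FORKO samples.

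Signals are scaled signals of the arrays. Changes are differences of FORKO from WT in log2(signal + 5.73), a scale on which dim probe sets, such as those of Cfb and Cfi, change by less than their true fold. A gene is said to have risen or fallen where limma's adjusted p, taken over all 22506 probe sets tested, was under 0.05. The exact two-sided permutation p of a single gene cannot go below 0.1 with 3 against 3 arrays. In whole tissue, fewer or more cells of a type and less or more RNA per cell cannot be told apart.

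Of the 6 measured complement genes, Cfi rose in FORKO ovaries and 5 did not pass the test, while all 6 had a positive log2 change. For comparison, 1.30% of the 11199 genes tested were called higher in FORKO and 47.4% had a positive change. Cfb, with a WT mean of 14.3, passed the filter on dim signals (20.4) only through its FORKO arrays. Its positive sign is thus set in part by the filter. The list was also chosen with earlier results of these data known, so its counts and medians are descriptions only. The median log2 change of the 6 genes was 0.76, against -0.02 over all genes tested; with scaling to the bacterial spikes these medians were 0.91 and 0.14. For 4 of the 6 (Cfi, Serping1, C1ra and C1s1) every FORKO array lay above every WT array, a pattern that 10.7% of all genes tested showed. FORKO replicate 1 was the highest of all 6 arrays for 5 of the 6 genes, the other being C2, and for 21.6% of all genes tested. The median difference of the 6 genes from the WT mean was 1.37, 0.63 and 0.42 on the log2 scale in FORKO replicates 1, 2 and 3, and the median change was 0.46 without replicate 1.

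**Figure D1:**
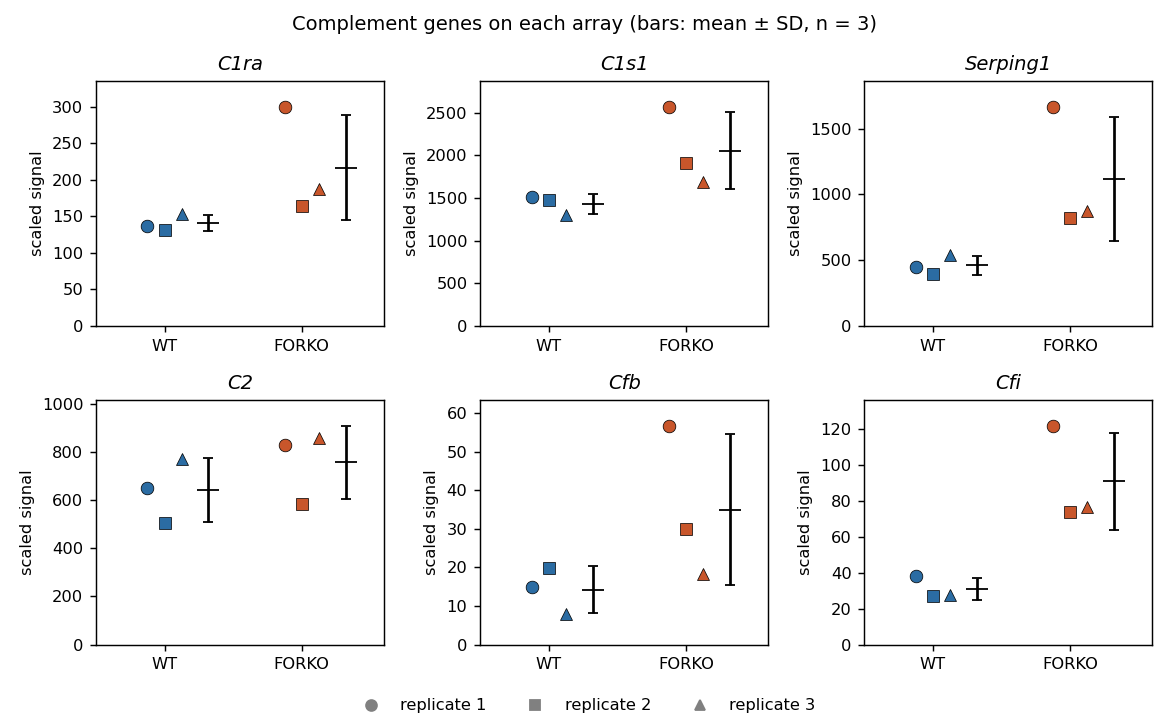
Scaled signal (vertical axes, linear, from 0) of the standing probe set of each measured complement gene on the 3 WT (blue) and 3 FORKO (orange) arrays, with the marker shape giving the replicate number and the bar to the right of each group the mean ± SD (n = 3). All FORKO arrays lie above all WT arrays for Cfi, Serping1, C1ra and C1s1, whereas the groups overlap for C2 and Cfb.

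C1ra and C1s1 encode the proteases of the C1 complex; C1r activates C1s, and C1s cuts C4 and C2. The genes lie next to each other on chromosome 6, and each has a close copy nearby, C1rb and C1s2. The probe set of C1s1 is of a type (_s_at) that can match more than 1 transcript, so signal from its copy cannot be told apart from its own. C1ra read 137.5, 132.1 and 153.9 on WT arrays and 299.5, 163.9 and 187.7 on FORKO arrays. The groups did not overlap, but FORKO replicate 2, at 163.9, lay only just above the highest WT array, at 153.9. The log2 change was 0.56 ± 0.23 (SE, n = 3 in each group; 95% interval 0.04 to 1.07), which did not pass the test (limma adjusted p = 0.301), and it was 0.31 without FORKO replicate 1. C1s1 read 1518, 1476 and 1301 in WT and 2564, 1912 and 1693 in FORKO ovaries. All FORKO arrays were again the higher, and the spread in FORKO was the wider, with an SD of 453 against 115 in WT. The log2 change of C1s1 was 0.50 ± 0.17 (SE; 95% interval 0.12 to 0.88; limma adjusted p = 0.207), and it was 0.33 without FORKO replicate 1. C1s1 passed under 1 of 19 alternative settings, the scaling to bacterial spikes (limma adjusted p = 0.0464).

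How alike C1ra and its copy are can be seen in their promoters, and it bears on what can be measured: a further probe set carries the symbols C1rb and C1ra together and was not used for that reason. In the RefSeq promoter table (GRCm38.p6), which held 2 of the 6 measured genes, the 99 bases just before the start of C1ra lie further upstream in C1rb, with 93 bases the same (93.9%). The stretches are chr6:124512522-124512620 (plus strand) for C1ra and chr6:124570180-124570278 (plus strand) for C1rb, and capitals mark the 6 bases that differ.
C1ra: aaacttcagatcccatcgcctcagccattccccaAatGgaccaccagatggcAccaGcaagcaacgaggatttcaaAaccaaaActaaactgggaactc
C1rb: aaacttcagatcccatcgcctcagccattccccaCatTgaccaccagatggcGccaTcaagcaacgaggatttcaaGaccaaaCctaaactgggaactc
The 100 bases before the upstream start of the adjacent C1s1, at chr6:124542360-124542459 (minus strand), are also shown. RefSeq also lists a downstream start of C1s1, which is not shown. Capitals in the C1s1 stretch mark a match to TTNNGNAA. The C1ra stretch holds TTCCCCAA and TTTCAAAA, which match these letters on the other strand and are not marked. Whether C1ra and C1s1 are regulated together was not tested.
C1s1: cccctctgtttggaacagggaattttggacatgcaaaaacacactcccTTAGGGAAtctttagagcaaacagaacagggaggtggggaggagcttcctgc

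Motifs were searched on both strands in promoters of 300 bases (250 before and 50 after a start), as letters only. The C/EBP-like letters TTNNGNAA were found in the promoters of both C1ra and C1s1, and in 40.7% of the 32851 promoters in the table. The gamma-activated letters TTCNNNGAA, found in 8.30% of all promoters, had 1 match in C1ra, TTCCCTGAA, at base 33 after the start (chr6:124512653-124512661), and none in C1s1. The cAMP response core TGACG (20.8% of promoters) had no match in any window of C1ra or C1s1. These matches did not overlap one another, and a match is a description of letters in these windows, not a site.

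Serping1 encodes C1 inhibitor, the serpin that inactivates C1r and C1s. It read 447.7, 393.9 and 540.9 on WT arrays and 1663, 824.0 and 873.7 on FORKO arrays. Every FORKO array was clearly above the highest WT array, and replicate 1 was far above the other FORKO arrays. The mean was 461 ± 74.4 in WT and 1120 ± 471 in FORKO (SD, n = 3 in each), and the log2 change was 1.21 ± 0.26 (SE; 95% interval 0.62 to 1.79). This did not pass the test (limma adjusted p = 0.0555). It passed with the replicate number as a block (limma adjusted p = 0.0346) and without FORKO replicate 1, where the change was smaller, 0.88, and the adjusted p was 0.0137. It also passed without FORKO replicate 2 (limma adjusted p = 0.0490). Over all 19 alternatives the change lay between 0.88 and 1.39, and the adjusted p between 0.0137 and 0.225, under 0.05 in 5 of them.

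C2 encodes the protease subunit of the classical C3-cutting enzyme and Cfb, its relative, the protease subunit of the alternative one; the genes lie side by side on chromosome 17. C2 has 3 probe sets, and none passed. The standing probe set (1441912_x_at) read 653.2, 505.4 and 770.4 in WT and 831.0, 584.5 and 861.0 in FORKO ovaries, so that the groups overlapped. Its log2 change was 0.24 ± 0.21 (SE; 95% interval -0.23 to 0.70; limma adjusted p = 0.666). A second probe set (1416051_at) read 424.0, 476.7 and 408.8 in WT and 626.0, 382.2 and 389.7 in FORKO, where only replicate 1 was above WT. The other two probe sets had changes of 0.06 (95% interval -0.41 to 0.52) and -0.06 (-0.62 to 0.50), so the direction of C2 differed between its probe sets.

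Cfb was dim, at 14.9, 19.9 and 7.97 in WT and 56.7, 29.9 and 18.4 in FORKO ovaries. Its WT mean, 14.3, was under the dim filter of 20.4, which Cfb passed only through its FORKO arrays. FORKO replicate 3 lay below the highest WT array, so the groups overlapped, and the highest signal was 3.09 times the lowest within FORKO and 2.50 times within WT. The log2 change was 0.96 ± 0.38 (SE; 95% interval 0.11 to 1.82; limma adjusted p = 0.281), and 0.60 without FORKO replicate 1. Whether Cfb changed more than its neighbour C2 was examined array by array against each of the 3 probe sets of C2. The change of Cfb was larger by 0.73, 0.90 and 1.02 on the log2 scale than that of the standing and the other two probe sets. The exact two-sided permutation p was 0.3, 0.1 and 0.2 (0.3 in each case after Benjamini-Hochberg adjustment over the 3 pairs); since 0.1 is the smallest p that 3 against 3 arrays allow, this test could not have passed and leaves the question unanswered.

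Cfi encodes factor I, the protease that cuts C3b and C4b and so ends the activity of both C3-cutting enzymes. It read 38.3, 27.2 and 27.8 on WT arrays and 121.9, 74.1 and 76.7 on FORKO arrays. The lowest FORKO array was well above the highest WT array, and FORKO replicates 2 and 3 were close to each other. The mean was 31.1 ± 6.24 in WT and 90.9 ± 26.9 in FORKO (SD, n = 3 in each). Cfi rose by 1.37 ± 0.24 (SE) on the log2 scale, which is 2.58-fold on that scale (95% interval of the log2 change 0.83 to 1.91; limma adjusted p = 0.0260). Without FORKO replicate 1 it still passed, with a change of 1.15 (limma adjusted p = 0.0147). It did not pass without WT replicates 1, 2 or 3 (limma adjusted p = 0.0596, 0.126 and 0.106) or without FORKO replicate 3 (0.0623), with changes of 1.29 to 1.51.

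**Figure D2:**
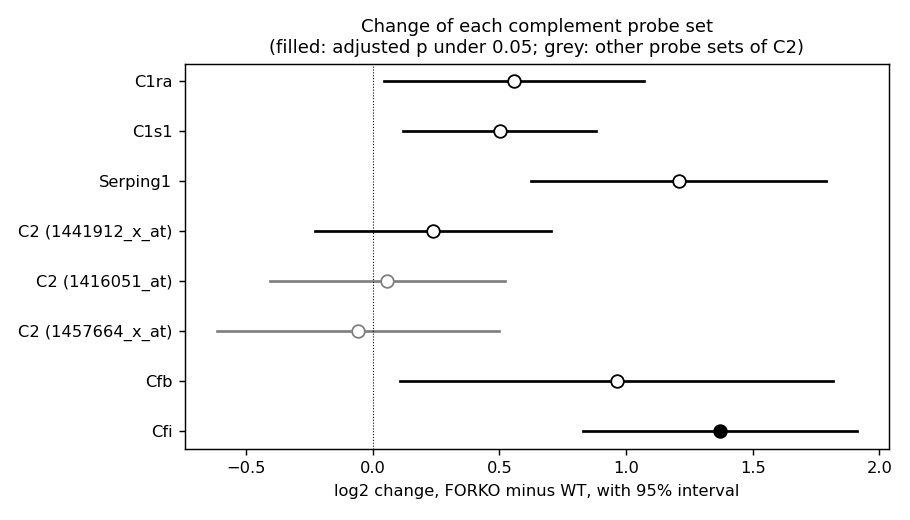
Log2 change, FORKO minus WT (horizontal axis), of each complement probe set with its 95% interval from limma; the filled point passed at an adjusted p of 0.05, and grey marks the other probe sets of C2. The interval of C2 spans 0 for all 3 probe sets, and the change of Cfi, 1.37, is the only one past the threshold.

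Among the other genes of the complement system, a list of 50, none passed the test. Of 41 with a probe set, 20 passed the filter on dim signals, and limma called 0 of the 20 at an adjusted p of 0.05, while 5 had an unadjusted p under 0.05. Their median change was 0.10, with 12 positive and 8 negative, and it ranged from 0.013 (without FORKO replicate 3) to 0.23 (without WT replicate 3) with 1 array left out, being 0.06 without FORKO replicate 1; scaling to the bacterial spikes gave 16 positive and 4 negative. Of all genes tested, 2.14% were called in either direction.

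The recognition subunits of C1, made chiefly by macrophages, had positive changes that did not pass: C1qa 0.56 (95% interval -0.01 to 1.13), C1qb 0.24 (-0.31 to 0.80) and C1qc 0.07 (-0.57 to 0.72). C1qa read 202.9, 131.6 and 188.2 in FORKO replicates 1, 2 and 3, and C1qb read 501.3, 268.1 and 397.9. For both genes replicates 1 and 3 lay above the highest WT array, at 164.4 for C1qa and 367.3 for C1qb. C1qc read 358.8, 145.4 and 202.6 in FORKO replicates 1, 2 and 3, against 210 ± 25.7 (SD, n = 3) in WT. For C1qc only replicate 1 was above the WT arrays. Among macrophage markers, all 12 had a positive change (11, 11 and 10 of 12 with quantile normalization, signals as deposited and the same median) and limma called none (3 had an unadjusted p under 0.05; largest Cd14, 0.99, limma adjusted p = 0.0298 with the replicate block and 0.0325 with spike scaling). Adgre1, Cd14 and Ctss were above WT on all 3 FORKO arrays, whereas Mrc1 and Cd163 had changes of 0.06 and 0.02. The summed signal of the 12 was 3899 to 4347 in WT and reached 10420 in FORKO replicate 1, while replicates 2 and 3 stood at 4072 and 4970. The part of macrophages in the values of C1q was not tested.

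Masp1, a protease of the lectin route, had the largest change in the list, a negative one. Its standing probe set read 237.7, 153.9 and 205.1 in WT and 8.09, 56.9 and 72.9 in FORKO ovaries, with every FORKO array below every WT array. The log2 change of Masp1, -2.30 ± 0.54 (SE), did not pass (limma adjusted p = 0.0754). It did pass under 3 alternatives: signals as deposited (0.0364), a larger pseudocount (0.0449), and without FORKO replicate 1, where the change was -1.52 (limma adjusted p = 0.00201). The other 3 probe sets of Masp1 past the filter had changes of -1.79, -0.99 and -0.99, none of which passed (limma adjusted p = 0.10 to 0.444).

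C8g, which encodes a subunit of the membrane attack complex, read 9.55, 12.7 and 21.8 in WT and 35.5, 38.5 and 34.9 in FORKO ovaries. Its FORKO arrays were almost alike and all above WT (log2 change 1.08, limma adjusted p = 0.0961). The complement receptor subunit gene Itgax, also known as CD11c, read 19.1, 10.1 and 8.95 in WT and 90.7, 31.0 and 42.5 in FORKO. Its change was 1.63 ± 0.37 (SE; limma adjusted p = 0.0690), which passed under 4 alternatives, among them the replicate block (0.0220) and leaving out FORKO replicate 2 (limma adjusted p = 0.0485). Its partner Itgb2 had a change of 1.11 (limma adjusted p = 0.268), with FORKO replicate 1 at 484.9 and the other FORKO arrays at 119.3 and 167.1. C8g, Itgax and Csmd1 had WT means of 14.7, 12.7 and 16.5, under the dim filter of 20.4. They passed the filter only through their FORKO arrays.

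Of the regulators bound to the cell surface, Cd55 had a change of 0.11 (95% interval -0.58 to 0.81) and Cr1l, the mouse regulator Crry, one of -0.06 (-0.42 to 0.31). Csmd1, a large membrane protein with complement control domains, had a change of 0.75 (95% interval 0.23 to 1.27) with groups that did not overlap, which did not pass (limma adjusted p = 0.170). The factor D gene Cfd was not analysed here.

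**Figure D3:**
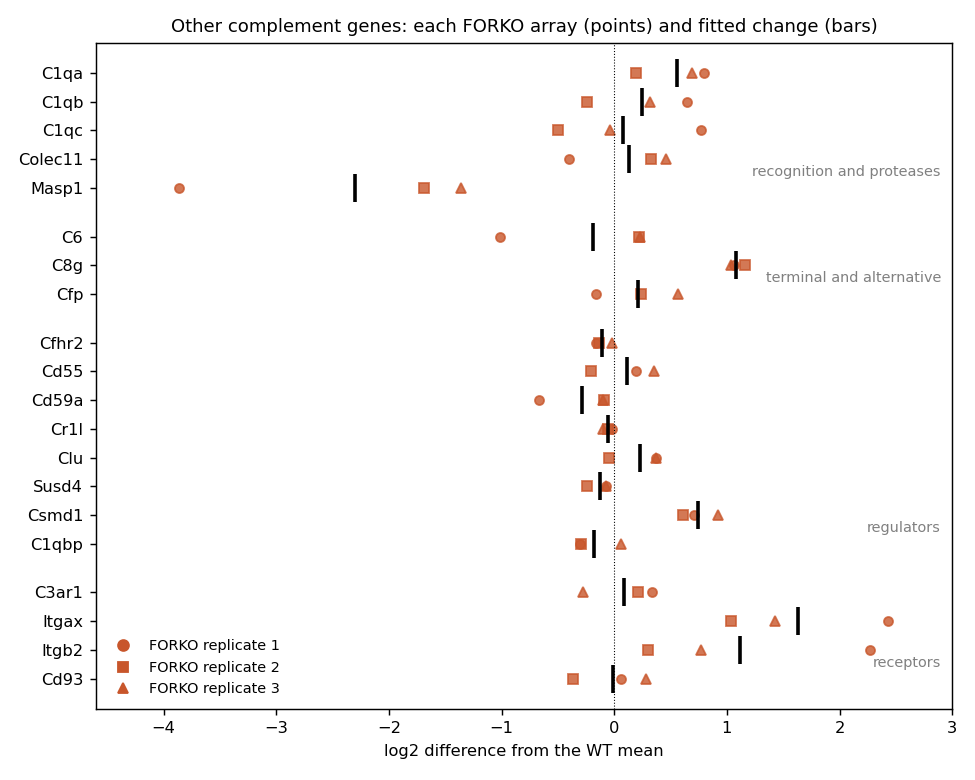
Difference in log2 signal from the WT mean (horizontal axis) for the 20 other complement genes past the dim filter, with points for the 3 FORKO arrays and black bars for the fitted change, grouped by role. Masp1, at -2.30, and Itgax, at 1.63, have the largest changes, and among the regulators Csmd1 is above 0 on all 3 arrays (0.71, 0.61 and 0.92).

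Genes beside the 9 complement genes on their chromosomes had changes on both sides of 0. Of 65 protein-coding neighbours, up to 5 on each side in the GRCm38.p6 gene table, 43 were tested, of which 1 rose and 42 did not pass, with 24 positive and 19 negative changes and a median of 0.02. The median was negative under 5 of the alternatives, so no direction is given for it. The gene that rose was Plcxd3, near C7, which read 25.3, 25.9 and 22.2 in WT and 75.2, 63.5 and 71.1 in FORKO ovaries (log2 change 1.32, limma adjusted p = 0.0138). It missed the threshold without WT replicates 1, 2 or 3 or FORKO replicate 3 (limma adjusted p = 0.0516, 0.0567, 0.0601 and 0.0556). Stk19, close to C2 and Cfb, read 88.0, 102.3 and 113.9 in WT and 177.8, 179.4 and 131.7 in FORKO, which did not pass (log2 change 0.65, limma adjusted p = 0.149).

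Markers of the cells that make up the ovary, or that could have come with it, are given by their counts and, where they vary, by array. Surface epithelium and mesothelium markers, a layer around the ovary, had 10 of 10 positive changes, of which Krt8 (1.07) and Krt18 (1.15) rose and 8 did not pass. Krt8 missed the threshold without WT replicates 1, 2 or 3 or FORKO replicate 3 (limma adjusted p = 0.0532 to 0.0642), and Krt18 without any 1 array other than FORKO replicate 1 (0.0534 to 0.149). Upk3b (1.11) passed only with spike scaling (limma adjusted p = 0.0455). The summed signal of the 10 markers was 868 to 949 in WT, and FORKO replicates 1, 2 and 3 reached 2497, 1443 and 1548. Of 4 oviduct and uterus markers tested, all were positive and none passed (largest Ovgp1, 1.93). Without FORKO replicate 1, 3 of the 4 passed: Ovgp1 (2.84, limma adjusted p = 0.000224), Ltf (2.73, 0.00230) and Wfdc2 (1.72, 0.0366); Wfdc2, at 0.0508 with all arrays, also passed under 4 other alternatives. The summed signal of all 8 listed genes, the 4 below the filter included, was 95.7 to 162 in WT and 287 to 462 in FORKO, with replicate 1 the lowest of the FORKO arrays. The dim filter takes the mean of all 6 arrays. Wfdc2 and Ltf, with WT means of 9.25 and 6.82, passed it only through their FORKO arrays. So did Msln, Lrrn4 and Muc16 of the surface epithelium, with WT means of 19.6, 16.9 and 20.2. The share of positive changes among the genes tested is thus set in part by the filter. Below the filter, WT and FORKO means were 19.9 and 6.23 for Sprr2f and 10.3 and 10.8 for Pax8. They were 2.56 and 4.88 for Foxj1 and 6.58 and 18.2 for Dynlrb2. The lymphocyte list had 3 of 11 genes past the filter (Ccl5, Il7r and Ptprc), none called (largest Ccl5, 1.90). Of these, Ccl5 and Ptprc are not confined to lymphocytes. Ccl5, with a WT mean of 15.5, passed the filter only through its FORKO arrays. Below the filter, Cd3e (means 5.42 in WT and 4.25 in FORKO) and Cd79b (12.0 and 9.59) were lower in FORKO. Cd3d, Cd2, Cd4, Cd8a, Cd79a and Ms4a1, also below it, had higher means in FORKO. Ccl5 passed with the replicate block (limma adjusted p = 0.0421) and without FORKO replicate 2 (0.0471), and Il7r without FORKO replicate 1 or 2 (0.0380 and 0.0282). Over all 11 genes of the lymphocyte list the sums were 354 to 443 in WT and 1842, 420.5 and 704 in FORKO. Ptprc alone read 309.7, 266.5 and 250.3 in WT and 1165, 284.5 and 431.9 in FORKO. The part of any of these cells in the complement values was not tested.

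Liver cells, the main source of circulating complement, had dim markers: albumin (Alb) read 11.0 ± 3.36 in WT (SD, n = 3) and 11.2, 6.11 and 8.98 in FORKO, below the dim filter, Fga and Fgb were under 1 on at least 1 array, and of the list only Apoa1 was tested (-0.42, not passed). Of 2 adipocyte markers tested, Car3 fell (-4.12), while Fabp4 had a positive change of 0.28 that did not pass (limma adjusted p = 0.639). Adiponectin (Adipoq) read 13.01 ± 0.57 in WT and 0.98, 1.19 and 2.85 in FORKO, below the filter. Also below it, Cidec, Lep and Lipe had lower means in FORKO and Retn a higher one, all with groups that overlapped. Neutrophil markers had 2 of 7 past the filter and none called (largest Camp, 0.79), with S100a8, S100a9 and Camp under 1 on at least 1 array.

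Stromal fibroblast markers had 6 of 8 changes negative and none passed (largest Lum, -1.82; limma adjusted p = 0.0368 with the replicate block; Dcn, 0.47, passed with spike scaling, 0.0191), with a median of -1.44 in FORKO replicate 1 but only -0.12 and -0.17 in the other FORKO arrays. The median of 5 granulosa markers was -1.32, 0.35 and 0.26 in FORKO replicates 1, 2 and 3 (none passed; largest Nr5a2, -1.87; Amh was at about 1 on all arrays). Nr5a2, at a limma adjusted p of 0.0547, passed with signals as deposited, the same median, the replicate block (0.0421), and without FORKO replicate 1 (-1.28, 0.000550) or 3 (0.0499). Amhr2, with a positive change of 0.66, passed under 6 alternatives, among them the replicate block (limma adjusted p = 0.0346) and leaving out FORKO replicate 2 (0.0382). None of 4 theca and interstitial markers (largest Star, -0.87) or 5 endothelial markers (largest Vwf, 1.07) passed; with the replicate block Star and Vwf did (limma adjusted p = 0.0418 and 0.0317), with spike scaling Vwf (0.0401), and with the same median Cyp11a1 (0.0496). Of 6 oocyte markers, all negative, Zp2 fell (-1.29), a call lost without WT replicate 1 or 2 (limma adjusted p = 0.0530 and 0.0567). Gdf9 (-1.31) passed without FORKO replicate 1 (-0.89, limma adjusted p = 0.0209), and Zp3 (-0.83) with the same median (0.0483). The part of these cells in the complement values was not tested either.

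**Figure D4:**
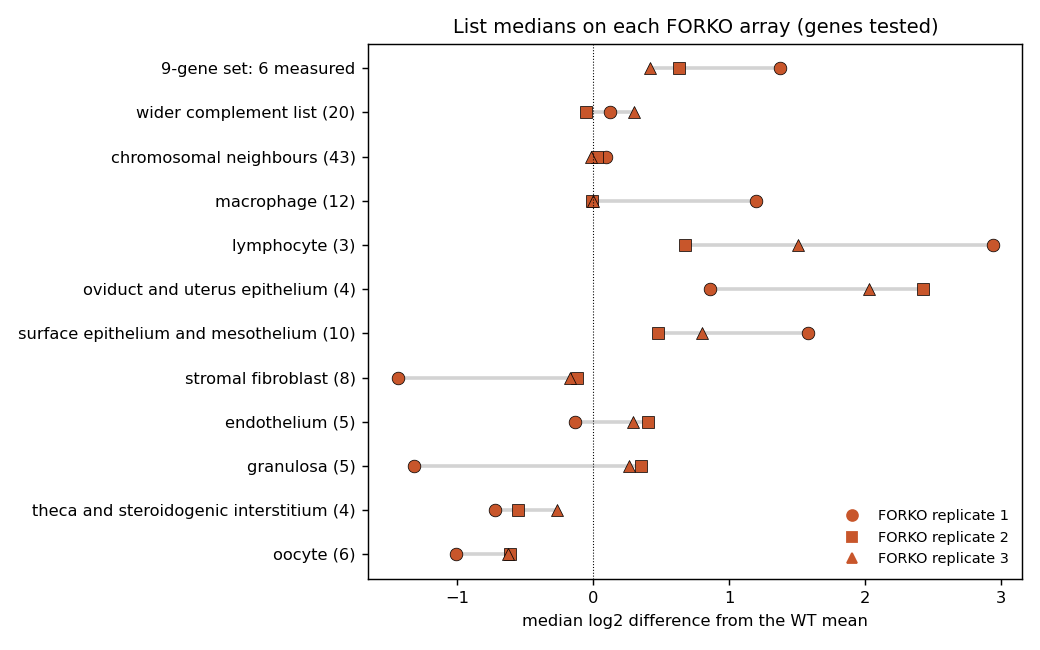
Median difference in log2 signal from the WT mean (horizontal axis) over the genes tested in each list, for FORKO replicates 1, 2 and 3; numbers in brackets give genes tested, and lists with fewer than 3 are left out. The 6 complement genes are above 0 on all 3 arrays (1.37, 0.63 and 0.42), as are the surface epithelium (1.58, 0.48 and 0.80), lymphocyte (2.94, 0.67 and 1.5) and oviduct and uterus (0.86, 2.42 and 2.03) markers. The medians leave out genes below the dim filter. The lymphocyte median is that of Ccl5, Il7r and Ptprc alone, of which Ccl5 and Ptprc are not confined to lymphocytes. Ccl5, Wfdc2, Ltf and Cfb passed that filter only through their FORKO arrays, as did Msln, Lrrn4 and Muc16 of the surface epithelium.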

How the data were processed

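The authors deposited 1 linear intensity value for each probe set, made with MAS5 according to the submitters' processing notes. Its target value and present calls are not given in the labels. Each array was scaled to 1 mean after trimming 2% at each end, and log2(signal + 5.73) was taken, the pseudocount being the pooled 25th percentile. The 64 control probe sets were left out, probe sets with a mean under 20.4 (the median) were dropped, and the remaining 22506 entered limma 3.58.1 under R 4.3.3 (eBayes with trend, two-sided, Benjamini-Hochberg at 0.05), after the fit was tested on simulated data. Figures used matplotlib 3.10.9. The number of arrays limits the precision.

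In the annotation, 34958 probe sets had 1 symbol, from which all names come; 932 had several and 9211 were not listed. Members and lists were chosen with earlier results of these data known. The text names all measured members, Fshr, in the wider list the 6 largest changes and a few set genes, and in other lists the genes that passed or the largest change. Stk19, Alb, Ahsg, Ttr, Apoh, Adipoq, Fabp4, genes under 1 on an array and genes named for the dim filter were added after their values were seen. So were marker genes named for a call under an alternative or for their array pattern. Lists were those of other complement genes, chromosomal neighbours and 12 cell types.

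Replicate numbers 1 to 3 recur in both groups. Deviations of same-numbered arrays correlated at 0.195, 0.134 and 0.358. No such values are given for arrays of different numbers, so these correlations cannot show that the numbers pair the samples. The labels state no pairing. The main fit was unpaired, and the replicate number as a block was 1 of the alternatives. No 2 arrays of a group were identical. Alternatives covered normalization, pseudocount, filter, variance model, block, each array left out, and choice of probe set.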

Additional observations from a re-analysis of the deposited data

How the results depend on the processing

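The measured complement genes kept a positive change under every alternative that tested them (4 of the 6 with a filter at the 75th percentile, all 6 otherwise), with a median of 0.46 to 0.96. The count called, 1 (Cfi), was 2 with signals as deposited and with the replicate block, 3 with spike scaling, and 0 with no dim filter (Cfi adjusted p = 0.0538; 5 with an unadjusted p under 0.05) or with a filter at the 75th percentile, which removed Cfi and Cfb; it was 0 to 2 with 1 array left out. The wider list had 2 calls with signals as deposited and 1 each with spike scaling, a pseudocount at the pooled median and the replicate block, and 0 to 1 with 1 array left out. The neighbours had 0 to 1 calls with 1 array left out and 0 with the 75th percentile filter. Their median of 0.02 was -0.013 with quantile normalization, -0.014 with signals as deposited, -0.046 with the same median, -0.094 with the 75th percentile filter, and -0.10 to 0.078 with 1 array left out. The cell type markers had 4 calls, 10 with spike scaling and 11 with the replicate block, and 1 to 10 with 1 array left out. Over all probe sets 372 passed, against 589 with spike scaling, 221 with no filter, 191 with the 75th percentile filter, 691 with the replicate block and 62 to 864 with 1 array left out. Of these calls 64.0% were higher in FORKO, 50.6% with the same median and 84.0% with spike scaling. Of the 2 further C2 probe sets, 1 had the sign of the standing one, 0 with the same median, 2 with spike scaling, and 0 to 2 with 1 array left out. The change of Fshr was -3.17 to -2.47 with 1 array left out and missed the threshold without WT replicates 1 and 3 (limma adjusted p = 0.0526 and 0.0598). The causes were not tested. With 3 arrays a group, dim genes such as Cfb have wide intervals.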
